A study of Drosophila melanogaster with 8 samples.

Results

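The change in whole-embryo RNA between cellular blastoderm and gastrulation was measured in Drosophila melanogaster embryos heterozygous for zen[7], a mutant allele of the homeobox gene zen. The comparison sets the 2 libraries of heterozygous embryos at stage 6-7 (gastrula) against the 2 libraries of heterozygous embryos at stage 5 (cellular blastoderm). These are 4 of the 8 libraries in the series, grouped by the genotype and stage in their labels. The comparison and the gene lists used below were chosen with earlier results of these data known. Both heterozygous groups are labelled with the genotype zen[7]/TM3, ftz-lacZ, in which the chromosome 3 balancer TM3 bears a lacZ transgene. By label, the groups compared therefore share the same mutant allele and the same balancer. The other 4 libraries are zen[7] homozygous embryos at stage 6-7 and at stage 5, again with 2 libraries each. Each library was made from pooled extracts of staged whole embryos (N = 100 in the labels), with no culture and no treatment. Homozygotes were picked by a genotyping PCR for lacZ. The sources used here do not say how heterozygotes were set apart from embryos with no zen[7] chromosome, so the makeup of the heterozygous pools is known only from their label.

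At stage 5 the nuclei of the fly embryo, which until then share a single cytoplasm, are enclosed by membranes that grow in from the surface, and the embryo's own genome takes over from RNA laid down by the mother. At stage 6 the ventral furrow folds in and makes the mesoderm, and at stage 7 the germ band begins to extend along the body axis while the dorsal cells flatten towards the amnioserosa. Over the same period the transient patterns of gap and pair-rule genes give way to the stable stripes of segment polarity genes and the domains of Hox genes. In RNA from whole embryos, fewer cells of a type and less RNA per cell cannot be told apart.

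The gene counts of the heterozygous libraries summed to 34112341 and 32508475 at stage 6-7 and to 36134144 and 37770105 at stage 5, and 9360 genes passed the filter on low counts and were tested. Levels are given in CPM, counts scaled to the size of their library after TMM scaling, replicate 1 before replicate 2. Changes are log2 ratios of stage 6-7 over stage 5 from edgeR's quasi-likelihood fit, with its standard error (SE), and a gene is said to have risen or fallen where the Benjamini-Hochberg adjusted p over all tested genes was under 0.05. The first principal component of all 8 libraries took up 76% of the variance, with the stages at its opposite ends. Heterozygous stage 6-7 replicate 1 lay at 38.9 on it, closer to the stage 5 libraries than the other stage 6-7 libraries at 48.81 to 51.12, while the heterozygous stage 5 libraries lay at -45.1 and -45.11. Of the 1074 genes that rose by 2-fold or more, 883 stood lower in stage 6-7 replicate 1 than in replicate 2. The 985 genes that fell as far had no such lean, with 467 lower and 514 higher in stage 6-7 replicate 1. Of the markers of other sources, 10 of 13 follicle and eggshell genes had too few reads to be tested, the sum of all 13 was 2.76 and 2.55 CPM at stage 6-7 against 2.18 and 2.21 CPM at stage 5, and Cp36, Cp38 and Vm32E were at 0 in all 4 libraries. Of the 11 neuron and muscle genes of older embryos that had a row, 9 were tested and 1, futsch, rose, a call lost without heterozygous stage 5 replicate 1 (adjusted p = 0.0898). The sum of this list was 168.9 and 186.5 CPM against 136.5 and 159.6 CPM, nearly all of it from elav (154.8 and 171.6 against 126.1 and 147.6 CPM, adjusted p = 0.306), and muscle myosin Mhc stood under 1 CPM in every library. The part of these sources in the results was not tested.

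Most tested transcripts differed between the stages. By edgeR, 5142 of 9360 genes (54.9%) passed, of which 2660 (28.4%) rose and 2482 (26.5%) fell. Counts of members of gene lists below are to be read beside these shares. The lists can share genes, so their counts are not all separate evidence. Scaling by library totals alone moved the median of all tested genes up by 0.154 on the log2 scale and split the calls into 3352 higher and 1935 lower, so the balance of rises and falls depends on the scaling. Large changes were fewer and ran more often downward, with 180 genes (1.92%) rising and 291 (3.11%) falling by 4-fold or more, and 20 against 32 by 16-fold or more. The levels at which they changed differed as well. Genes that rose at least 4-fold had a median of 1.64 CPM at stage 6-7 and 0.241 CPM at stage 5, while those that fell at least 4-fold had a median of 1.98 CPM at stage 6-7 and 15.8 CPM at stage 5. The groups of 2 libraries did not overlap for 7300 genes (78.0%). Against a null of 2-fold change, 356 genes rose and 537 fell. The p-values measure the spread between pools of embryos that the labels call replicates. Where exons of a gene overlap those of another, as annotated for Abl, Antp, Cdk2, Clamp, Fhos, T48, Ten-m, Traf4, Trl, Ubx, alpha-Cat, ana, arm, aub, aurA, brat, cact, ci, cv, disp, dpn, elav, eve, ftz-f1, fu, futsch, gcm, grh, neur, osk, ovo, pan, pgc, pll, pnr, prd, smo, snk, srp, tkv, twi, twin, ush and cry, and for the pairs named below, the value is uncertain, since the strand setting of the counting is not given in the sources used here.

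**Figure D1:**
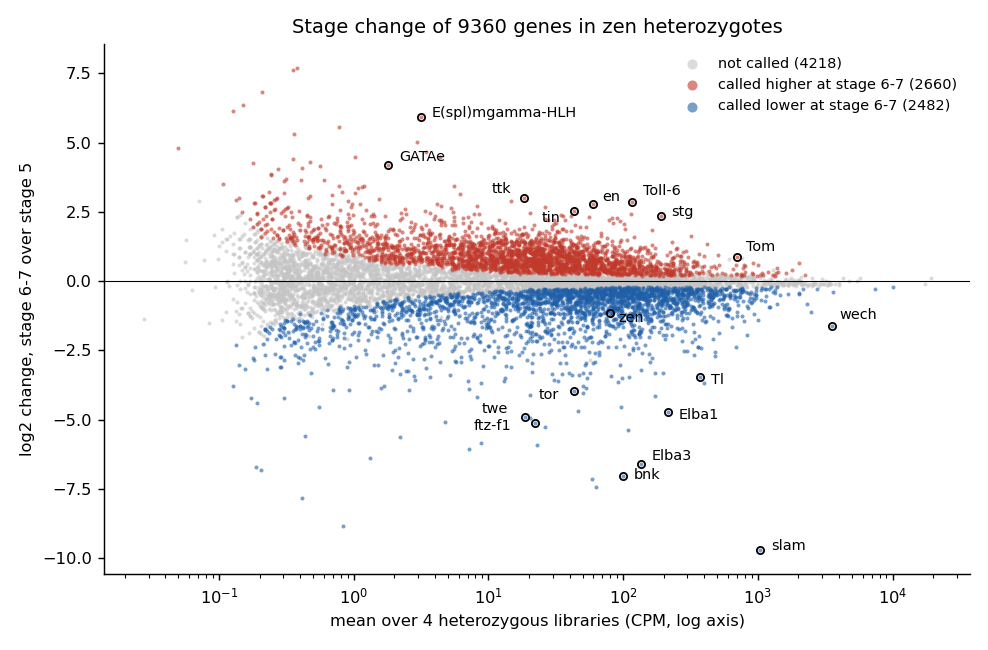
Log2 change between the stages (stage 6-7 over stage 5, vertical axis) against the mean level over the 4 heterozygous libraries (CPM, log axis) for the 9360 tested genes, with each point 1 gene, coloured by its call and some genes circled and named. The falls reach further than the rises at high levels, down to slam at -9.70, while among genes over 10 CPM the named rises stay under 3.

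The 5 tested genes of the cellularization list, active while membranes enclose the nuclei, all fell, with a median log2 change of -5.08 beside 0.02 for all tested genes. The gene slam, whose product is needed for the growth of the furrow membranes, fell furthest among called genes of at least 5 CPM. It stood at 2.89 and 2.09 CPM at stage 6-7, against 2256 and 1892 CPM at stage 5 (FBgn0043854, arm 2L, 6372388 to 6377284, plus strand, log2 -9.70, SE 0.256, adjusted p = 1.95e-09). Both stage 6-7 libraries lay far below both stage 5 libraries. Its level at stage 5 made slam 1 of the 6 genes with the largest CPM loss in the embryo. The single-exon gene bnk, which keeps the actin network of the furrows from closing early, stood at 1.49 and 1.57 CPM against 227.4 and 169.9 CPM (FBgn0004389, arm 3R, 31193362 to 31194389, plus strand, log2 -7.02, SE 0.289, adjusted p = 1.07e-07). The gene nullo on X, which acts in the same furrows, stood at 0.303 and 0.232 CPM against 10.7 and 7.78 CPM (log2 -5.08). Falls of halo, which governs the transport of lipid droplets (32.6 and 38.9 against 390.3 and 329.8 CPM, log2 -3.33), and of term (191.4 and 162.2 against 754.7 and 733.7 CPM, log2 -2.07) were smaller. The sixth gene of the list, Sry-alpha, was at 0 in all 4 libraries and overlaps Sry-beta in the annotation, so it says nothing here.

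Genes of the Elba insulator complex fell nearly as far. Elba1 and Elba3 lie close together on arm 2L (4683052 to 4684461 on the minus strand and 4687511 to 4688956 on the plus strand), and with Elba2 they encode a boundary factor of the Hox complex that works in the early embryo. Elba3, which joins the other 2 proteins, stood at 2.84 and 2.67 CPM at stage 6-7 and 288.8 and 245.1 CPM at stage 5 (log2 -6.60, SE 0.246, adjusted p = 2.32e-08). Elba1 stood at 19.5 and 11.4 CPM against 428.1 and 395.6 CPM (log2 -4.73), and Elba2 at 60.4 and 55.5 CPM against 758.6 and 726.9 CPM (log2 -3.68). The stages did not overlap for any of the 3, as for 78.0% of all tested genes, and the largest falls were named only where they did not. Their BEN-domain relative insv fell less, to 349.2 and 321.6 CPM against 601.8 and 595.5 CPM (log2 -0.84). The list of genome activation factors holds the Elba genes and insv beside zld, Trl, grh and Clamp, so its median of -0.76 is not that of activators alone. All 8 tested members fell, and 6 of them fell with scaling by library totals. In this list zld, the pioneer factor that opens the zygotic genome, had a small change from a high level (610.6 and 696.3 against 834.4 and 884.8 CPM, log2 -0.40, adjusted p = 0.0214). Its call was lost without heterozygous stage 6-7 replicate 1 (adjusted p = 0.15), stage 5 replicate 2 (0.0932) or stage 5 replicate 1 (0.05), and with library totals (0.176). The other pioneer-type factors Trl (log2 -0.67), grh (-0.57) and Clamp (-0.35) fell by less than 2-fold, the last not with library totals (adjusted p = 0.0707).

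Of the other genes with the largest falls, several have no described role in the annotation. CG15382 stood at 0.909 and 0.522 CPM against 127.7 and 121.4 CPM (log2 -7.43), and CG43725 at 0.937 and 0.696 CPM against 125.8 and 108.1 CPM (log2 -7.15). CG15382 lies antisense to aop, and without the strand setting of the counting, reads of such a pair cannot be told apart. CG13711, mol, the formin gene Fhos, dunk, CG15876, the zinc transporter gene ZnT49B and CG43184 had log2 changes of -6.04 to -4.67. The gene dunk, which acts on myosin during cellularization, stood at 5.62 and 4.64 CPM against 223.7 and 199.7 CPM (log2 -5.36). The nuclear receptor gene ftz-f1, partner of the pair-rule protein Ftz, stood at 1.32 and 1.16 CPM against 47.0 and 38.8 CPM (log2 -5.11), while the log2 change of ftz itself was -0.45. By absolute loss, wech led, with 1765 and 1698 CPM against 5151 and 5595 CPM (log2 -1.63), followed by slam and by Nrt, a cell adhesion gene (1637 and 1475 against 3357 and 3430 CPM, log2 -1.12), which lies antisense to mus302.

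Regulators of the cell cycle changed in opposite directions. In the cycle that ends cellularization, mitosis waits until the phosphatase String is made, and inhibitors hold it back while the ventral furrow forms. The gene stg, for String, stood at 275.1 and 362.6 CPM at stage 6-7 and 69.1 and 54.2 CPM at stage 5 (FBgn0003525, arm 3R, log2 2.37, SE 0.227, adjusted p = 5.44e-05). Its maternal counterpart twe stood at 1.27 and 1.13 CPM against 41.1 and 30.8 CPM (log2 -4.90, SE 0.223, adjusted p = 1.26e-09), though it lies antisense to EndoGI. The mitotic inhibitors trbl (163.6 and 140.8 against 370.7 and 338.8 CPM, log2 -1.22) and Z600 (21.0 and 15.8 against 351.1 and 305.0 CPM, log2 -4.16) fell, the second with exons shared with gdl. Other brakes rose. They were dap, a Cdk inhibitor (21.3 and 25.3 against 10.1 and 7.61 CPM, log2 1.40), and fzr, an activator of cyclin destruction (86.4 and 87.9 against 43.1 and 55.1 CPM, log2 0.83). The listed mitotic cyclins and kinases had log2 changes of -0.523 to 0.799, with a median of 0.00. Of 13 tested, 4 (30.8%) rose and 2 (15.4%) fell, not far from the 28.4% and 26.5% of all tested genes. Cdk1 (373.7 and 361.3 against 384.3 and 351.2 CPM), CycA, CycB3 and polo had log2 values of -0.13 to 0.00 with no call. The largest change in the list was that of Cdk2 (92.3 and 100.5 against 55.8 and 54.9 CPM, log2 0.80). Of the 4 rises, those of CycB, aurA and Myt1 did not pass once heterozygous stage 5 replicate 2 was left out (adjusted p = 0.11, 0.0582 and 0.0744), which left 1. The falls of CycD (log2 -0.52) and BubR1 (-0.29) became 1 without either stage 5 library or without stage 6-7 replicate 1.

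Maternal RNA and its regulators went down unevenly. Of 17 tested genes that control maternal mRNA, 9 (52.9%) fell and 1 (5.88%) rose, beside 26.5% and 28.4% of all tested genes. Their median was -0.44. The deepest fall was that of pum, a translational repressor (27.2 and 35.2 against 206.2 and 173.7 CPM, log2 -2.61, SE 0.134, adjusted p = 3.22e-09). Then came wisp, a cytoplasmic poly(A) polymerase (149.6 and 109.0 against 569.7 and 527.0 CPM, log2 -2.08), gnu (-1.40) and plu (-1.09), which encode subunits of the Pan gu kinase, and smg, which directs the removal of poly(A) tails from maternal mRNA (82.9 and 94.5 against 251.1 and 212.4 CPM, log2 -1.39). The deadenylase gene twin was the member that rose (151.9 and 169.6 against 114.1 and 99.2 CPM, log2 0.59), and brat also passed without either homozygous stage 5 library (adjusted p = 0.0468 and 0.0355). The gene pAbp, for an RNA-binding protein of general use (2079 and 2007 against 2141 and 2242 CPM), was not called. The falls of tral (log2 -0.477) and me31B (log2 -0.295) were small, the second not called with library totals (adjusted p = 0.201). That of orb (log2 -0.536) was not called with library totals either (edgeR adjusted p = 0.123), which left 7 falls.

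Of 16 tested maternal genes of the body axes, 10 (62.5%) fell and 1 (6.25%) rose, beside 26.5% and 28.4% of all tested genes. Their median was -0.93. The falls include hb, which is also counted among the gap genes below. The receptors fell furthest. The terminal receptor tyrosine kinase gene tor stood at 5.01 and 5.36 CPM at stage 6-7 against 85.2 and 78.1 CPM at stage 5 (FBgn0003733, arm 2R, log2 -3.98, SE 0.122, adjusted p = 5.65e-11). The dorsoventral receptor gene Tl stood at 55.6 and 67.2 CPM against 716.3 and 639.0 CPM (log2 -3.46, SE 0.119, adjusted p = 1.1e-10). In the same pathway the protease genes ea (71.0 and 53.2 against 139.0 and 131.6 CPM, log2 -1.12) and snk (0.551 and 0.580 against 3.39 and 3.29 CPM, log2 -2.56) fell, as did cact, the inhibitor of Dorsal (534.3 and 518.6 against 840.8 and 908.4 CPM, log2 -0.73). The kinase gene pll and the adaptor gene tub, which act below the receptor, had log2 values of -0.14 and 0.21 with no call. The anterior determinant bcd stood at 0.882 and 1.10 CPM against 6.76 and 6.14 CPM (log2 -2.70), and the posterior factor cad at 16.8 and 15.7 CPM against 53.5 and 47.5 CPM (log2 -1.64). The 1 rise was tsl, at 1.32 and 1.19 CPM against 0.464 and 0.166 CPM, and with genes under 10 CPM left out the counts were 6 and 0.

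Germ plasm and pole cell genes also fell for the most part, with a median of -0.41. Of 12 tested, 7 (58.3%) fell and 2 (16.7%) rose, beside 26.5% and 28.4% of all tested genes. Their summed level was 396.4 and 426.6 CPM at stage 6-7 and 606.9 and 555.0 CPM at stage 5. The piRNA factor gene aub (61.0 and 57.6 against 116.8 and 122.5 CPM, log2 -1.01), osk (2.20 and 2.09 against 5.48 and 4.40 CPM, log2 -1.20) and pgc, which silences transcription in pole cells (6.01 and 8.38 against 15.1 and 12.4 CPM, log2 -0.93), were among the falls, while ovo rose (31.99 and 38.3 against 18.6 and 20.8 CPM, log2 0.84). The other rise, of tud, was lost without heterozygous stage 5 replicate 2 or stage 6-7 replicate 2 (adjusted p = 0.0723 and 0.0864).

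**Figure D2:**
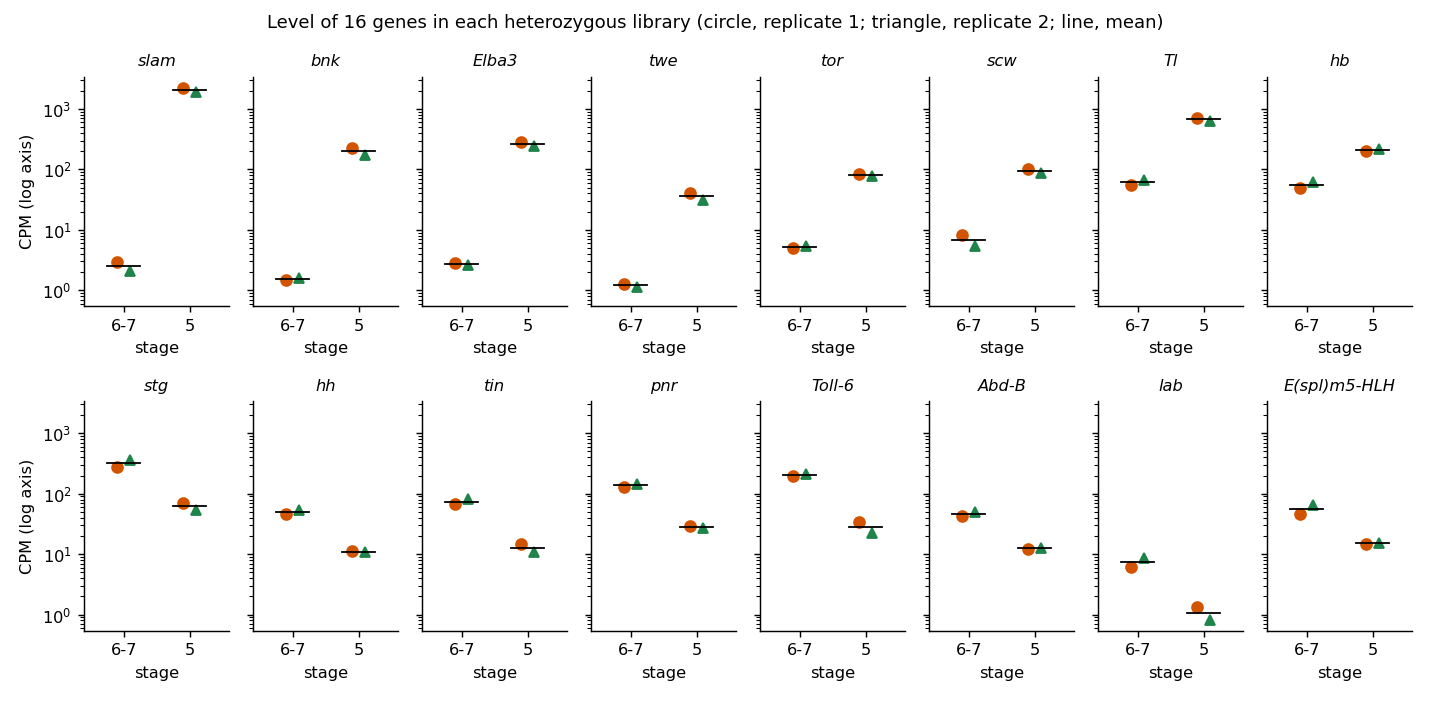
Level of 16 genes in each heterozygous library (CPM, log axis), with stage 6-7 left of stage 5 in each panel, a circle for replicate 1, a triangle for replicate 2 and a line for the mean of the 2 libraries. The genes in the top row stood lower at stage 6-7 and those in the bottom row higher. In none of the panels do the 2 stages overlap, as in 78.0% of all tested genes.

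Segmentation genes are given in the order in which they act. Of the 7 gap genes, the first zygotic tier, 6 (85.7%) fell and none rose, beside 26.5% and 28.4% of all tested genes. Their median was -1.04. The gene hb stood at 50.01 and 60.8 CPM at stage 6-7 and 198.5 and 218.3 CPM at stage 5 (log2 -1.91, SE 0.107, adjusted p = 7.13e-09), and tll, of the termini, at 25.7 and 19.4 CPM against 93.0 and 91.6 CPM (log2 -2.03, SE 0.16, adjusted p = 2.98e-07). Falls of gt (71.3 and 72.3 against 162.8 and 164.0 CPM, log2 -1.19), kni (-1.04), hkb (-0.82) and Kr (-0.67) were smaller. The close relative of kni, knrl, stood at 85.0 and 91.7 CPM against 91.5 and 100.1 CPM and was not called (adjusted p = 0.316). Of 6 head gap genes, oc (log2 -0.73), ems (-0.75) and croc (-0.42) fell and slp1 rose.

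Most pair-rule genes, the second tier, fell. The genes hry (120.5 and 119.7 against 231.0 and 240.7 CPM, log2 -0.97, SE 0.0823, adjusted p = 3.11e-07) and eve (60.3 and 63.8 against 114.8 and 128.4 CPM, log2 -0.97) fell by nearly 2-fold. The level of ftz was 207.8 and 230.1 CPM against 288.6 and 310.2 CPM (log2 -0.45), and that of odd was 179.3 and 202.4 CPM against 204.2 and 207.7 CPM with no call (adjusted p = 0.306). The sister genes slp1 and slp2 rose, slp1 to 232.6 and 229.9 CPM against 99.5 and 89.4 CPM (log2 1.29, SE 0.113, adjusted p = 4.28e-07) and slp2 to 55.3 and 71.4 CPM against 27.8 and 25.6 CPM (log2 1.25). In all 7 of 10 fell and 2 rose, with a median of -0.39. Without heterozygous stage 6-7 replicate 1, or with library totals, 4 fell and 2 rose, since run, prd and opa (log2 -0.40 to -0.36) were then not called (adjusted p = 0.108, 0.0649 and 0.12 without that library).

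Of 16 tested segment polarity genes, the third tier, 6 (37.5%) rose and 6 (37.5%) fell. These shares are not far from the 28.4% and 26.5% of all tested genes, so the genes are given singly. The stripe gene en, for the homeodomain factor of the posterior compartment, stood at 93.8 and 113.8 CPM at stage 6-7 and 17.5 and 12.8 CPM at stage 5 (FBgn0000577, arm 2R, 11524006 to 11528210, minus strand, log2 2.78, SE 0.538, adjusted p = 0.0109). The signal gene hh stood at 46.3 and 54.5 CPM against 11.2 and 10.8 CPM (FBgn0004644, arm 3R, log2 2.20, SE 0.171, adjusted p = 2.34e-07). Both stage 6-7 libraries exceeded both stage 5 libraries for each gene. The rises of gsb (53.8 and 65.7 against 14.8 and 8.36 CPM, log2 2.37), mid (118.7 and 139.7 against 32.8 and 23.4 CPM, log2 2.20), inv (2.54 and 4.29 against 1.13 and 1.25 CPM, log2 1.52) and ci, the transcription factor of the Hedgehog pathway (899.7 and 1003 against 627.6 and 661.0 CPM, log2 0.56), completed the set. Neither en nor mid kept its call when heterozygous stage 5 replicate 2 was left out (adjusted p = 0.0648 and 0.0577). The 6 falls were of the Hedgehog pathway genes fu (39.4 and 41.8 against 111.2 and 114.7 CPM, log2 -1.48), disp (-1.30), smo (240.3 and 210.2 against 425.7 and 433.9 CPM, log2 -0.93), cos (-0.68) and ptc (-0.48), and the Wnt receptor gene fz (-0.79). The Wnt pathway genes arm, arr and pan had log2 values of 0.03 to 0.05 and no call, and wg has no row under its symbol in the files.

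Of the 8 Hox genes, which set segment identity, 7 rose and none fell, with a median of 1.55. The anterior gene lab stood at 6.06 and 8.52 CPM at stage 6-7 against 1.34 and 0.802 CPM at stage 5 (log2 2.77, SE 0.261, adjusted p = 8.61e-07), and the posterior gene Abd-B at 42.2 and 50.5 CPM against 12.4 and 12.5 CPM (log2 1.90, SE 0.143, adjusted p = 1.12e-07). Between them lay Scr (16.6 and 26.6 against 5.25 and 4.73 CPM, log2 2.11), Antp (91.4 and 134.9 against 40.8 and 36.6 CPM, log2 1.55), abd-A (log2 1.55) and Ubx (12.3 and 17.3 against 6.35 and 5.45 CPM, log2 1.33). For each of these 6 genes stage 6-7 replicate 1 stood below replicate 2. The log2 change of Dfd was smaller at 0.63, and its call was lost without stage 6-7 replicate 2 (adjusted p = 0.0521). The member with no call, pb, stood under 0.5 CPM in every library.

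**Figure D3:**
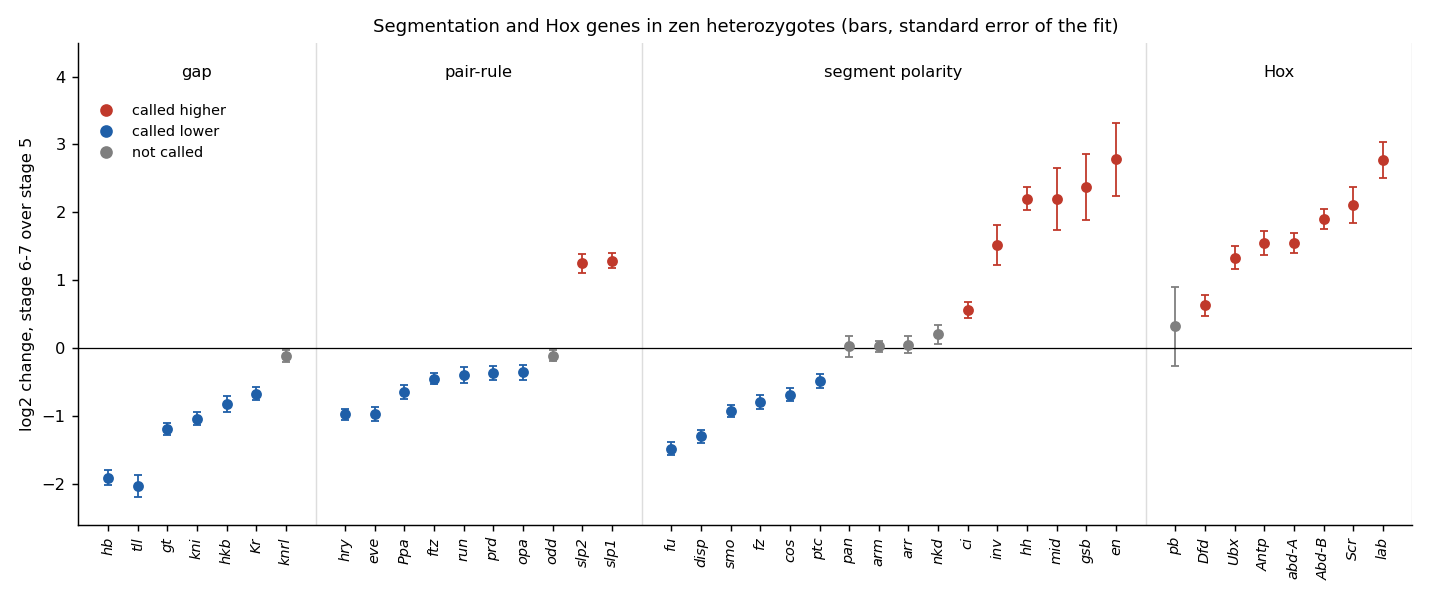
Log2 change (stage 6-7 over stage 5) of each tested gap, pair-rule, segment polarity and Hox gene in the heterozygous libraries, as points with bars for the standard error of the fit, coloured by call. Gap genes lie between -2.03 and -0.12, pair-rule genes other than slp1 and slp2 below 0, segment polarity genes spread from -1.48 to 2.78, and Hox genes lie above 0.

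The gene zen itself, a homeodomain factor of the dorsal ectoderm, stood at 41.0 and 58.2 CPM at stage 6-7 against 112.2 and 106.1 CPM at stage 5 (FBgn0004053, arm 3R, 6752864 to 6754194, minus strand, log2 -1.14, SE 0.14, adjusted p = 1.37e-05). The stages did not overlap, and replicate 1 was the lower library at stage 6-7. Around it, the amnioserosa and dorsal ectoderm list rose in 10 of 14 members (71.4%) and fell in 3 (21.4%). The shares of all tested genes were 28.4% and 26.5%, and the median of the list was 0.76. Its GATA factor gene pnr rose most, to 130.7 and 144.5 CPM against 29.6 and 27.4 CPM (log2 2.27, SE 0.188, adjusted p = 1.86e-06). The homeobox genes C15 (13.1 and 18.3 against 4.03 and 4.23 CPM, log2 1.93) and zen2, the paralogue beside zen (16.6 and 27.0 against 5.51 and 6.20 CPM, log2 1.89), followed, with the zinc-finger gene peb (110.8 and 122.8 against 42.1 and 51.8 CPM, log2 1.31) and the GATA cofactor gene ush (189.2 and 220.3 against 85.6 and 102.2 CPM, log2 1.12). The T-box genes Doc1, Doc2 and Doc3 rose together, by 0.51 to 0.79 on the log2 scale. Besides zen, the members that fell were Kr and the TNF ligand gene egr (98.5 and 87.5 against 171.7 and 194.0 CPM, adjusted p = 0.0446). The call of egr was lost without any single heterozygous library (adjusted p = 0.0725 to 0.122) and without either homozygous stage 6-7 library (0.109 and 0.0826). Dtg stood at 589.9 and 567.7 CPM against 522.4 and 600.4 CPM and was not called (adjusted p = 0.721).

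Most transcripts for the extracellular side of BMP signalling, which patterns the dorsal ectoderm, were lower at stage 6-7. Of 9 Dpp ligands and modulators, 7 (77.8%) fell and 2 (22.2%) rose, beside 26.5% and 28.4% of all tested genes. Their median was -0.63. The partner ligand gene scw stood at 8.29 and 5.48 CPM at stage 6-7 and 100.5 and 88.1 CPM at stage 5 (log2 -3.77, SE 0.263, adjusted p = 3.19e-06), and dpp, the main ligand, at 48.9 and 60.2 CPM against 81.1 and 87.4 CPM (log2 -0.63). Among the secreted regulators, tsg (14.5 and 12.3 against 38.7 and 39.1 CPM, log2 -1.54), the protease gene tld (76.4 and 65.8 against 181.4 and 197.3 CPM, log2 -1.41), srw (-1.05), sog (-0.58) and tok (-0.58) fell. The modulators cv (22.2 and 23.8 against 10.7 and 11.2 CPM, log2 1.07) and cv-2 (102.0 and 106.2 against 60.4 and 75.2 CPM, log2 0.62) rose. Downstream, the transducer gene Mad stood at 39.1 and 49.99 CPM against 190.5 and 166.3 CPM (log2 -2.0), and the receptor gene put at 78.3 and 85.95 CPM against 222.8 and 194.8 CPM (log2 -1.35). In all 4 of 8 receptors, transducers and targets rose and 4 fell. Of the 4 rises, tkv (log2 0.56), sax (0.39), emc (0.41) and Dad (0.74), only sax kept its call under each left-out heterozygous library. The count fell to 1 without stage 6-7 replicate 2 and to 2 without stage 5 replicate 2.

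Of the 12 mesoderm genes 7 rose and none fell by edgeR, with a median of 0.46. The genes that start the mesoderm at the blastoderm, twi and sna, were not called. The level of twi was 321.7 and 368.7 CPM at stage 6-7 against 321.8 and 321.7 CPM at stage 5 (adjusted p = 0.329), and that of sna was 168.2 and 198.9 CPM against 228.5 and 205.4 CPM (adjusted p = 0.0663). The gene sna was called lower without either homozygous stage 5 library, stage 5 replicate 2 or stage 6-7 replicate 2 (adjusted p = 0.0215 to 0.0421), and the FGF receptor gene htl without either homozygous stage 5 library or stage 6-7 replicate 2 (adjusted p = 0.0145 to 0.0474). Other factors of the list rose. The homeobox gene tin stood at 66.5 and 81.2 CPM against 14.6 and 11.01 CPM (FBgn0004110, arm 3R, 21378977 to 21381970, plus strand, log2 2.53, SE 0.354, adjusted p = 0.00112), Mef2, of muscle differentiation, at 75.6 and 110.4 CPM against 21.5 and 15.7 CPM (log2 2.32), and zfh1 at 161.8 and 221.9 CPM against 39.4 and 32.2 CPM (log2 2.42), the last antisense to asRNA:CR45189. The FGF ligand gene ths rose (167.2 and 221.9 against 80.2 and 91.1 CPM, log2 1.18, not called with no filter on low counts at adjusted p = 0.0566), while its partner pyr did not pass (45.1 and 43.6 against 44.5 and 47.5 CPM, adjusted p = 0.789).

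Of 10 tested genes of ventral furrow constriction, 4 rose and 3 fell, not far from the 28.4% and 26.5% of all tested genes. The secreted signal gene fog stood at 57.0 and 74.6 CPM at stage 6-7 against 35.5 and 39.3 CPM at stage 5 (log2 0.82, SE 0.137, adjusted p = 0.000171), and Traf4 at 369.4 and 421.0 CPM against 244.6 and 292.2 CPM (log2 0.56). T48 and the myosin light chain gene sqh had smaller rises (log2 0.42 and 0.25), both lost without heterozygous stage 5 replicate 1 or stage 6-7 replicate 2 (adjusted p = 0.0512 to 0.0612), which left 2. The kinase gene Abl fell to 16.4 and 20.7 CPM against 204.4 and 200.0 CPM (log2 -3.45, SE 0.125, adjusted p = 1.73e-10), and the G-protein gene cta, which acts below Fog, to 16.7 and 24.0 CPM against 60.0 and 43.3 CPM (log2 -1.34). Of 4 tested surface receptors of germ-band extension, the stripe gene Toll-6 rose to 198.1 and 212.2 CPM against 33.7 and 22.7 CPM (log2 2.86, SE 0.4, adjusted p = 0.00271). Tollo was not called, at 125.7 and 127.4 CPM against 126.4 and 125.9 CPM (adjusted p = 0.992). Ten-m (log2 0.71) and Cirl (0.45) rose too, and both calls were lost without stage 6-7 replicate 2 (adjusted p = 0.0668 and 0.193).

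Of 12 neurectoderm and midline genes, 4 rose and 3 fell, shares close to the 28.4% and 26.5% of all tested genes, so the counts say little of the list and its genes are given singly. Dr, the dorsal column gene, stood at 28.7 and 39.6 CPM at stage 6-7 against 6.56 and 5.95 CPM at stage 5 (log2 2.45, SE 0.372, adjusted p = 0.00149), ind, of the intermediate column, at 36.9 and 43.4 CPM against 18.1 and 20.2 CPM (log2 1.07), and the midline gene sim at 43.2 and 56.8 CPM against 14.97 and 13.4 CPM (log2 1.82). The ventral column gene vnd stood at 40.1 and 53.3 CPM against 58.4 and 62.1 CPM (log2 -0.37, adjusted p = 0.0219), a call lost, like that of brk, without stage 6-7 replicate 1 (adjusted p = 0.244 and 0.191) or stage 5 replicate 2 (0.0832 and 0.113), which left 1 fall, that of rho (log2 -0.55). With both libraries that stood apart on the first principal component left out (heterozygous stage 6-7 replicate 1 and homozygous stage 5 replicate 1), 7 rose.

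Of 10 tested proneural and neuroblast genes 5 rose, 2 fell and 3 were not called, with a median of 0.73. The proneural genes ac (9.98 and 12.9 against 3.19 and 2.57 CPM, log2 1.99), l(1)sc (33.3 and 34.6 against 19.2 and 16.8 CPM, log2 0.92) and sc (6.67 and 7.24 against 4.004 and 3.57 CPM, log2 0.88) rose, and dpn (13.4 and 12.6 against 21.9 and 27.6 CPM, log2 -0.93) and mira (-0.35) fell. Of 16 tested genes of the Notch pathway and the Enhancer of split complex, 12 rose and 1 fell, with a median of 1.30. The bHLH repressor gene E(spl)m5-HLH stood at 45.8 and 65.5 CPM at stage 6-7 against 14.7 and 15.3 CPM at stage 5 (log2 1.89, SE 0.156, adjusted p = 2.79e-07). Its neighbours E(spl)m7-HLH (42.0 and 59.0 against 19.6 and 19.1 CPM, log2 1.39), E(spl)m8-HLH (1.53) and E(spl)m4-BFM (116.3 and 165.1 against 50.9 and 50.4 CPM, log2 1.47) rose by like amounts. E(spl)mgamma-HLH was nearly absent at stage 5, at 0.0870 and 0.111 CPM, and stood at 2.23 and 10.2 CPM at stage 6-7 (adjusted p = 0.00282), with its replicates far apart. It was not called by limma-voom (adjusted p = 0.0555) or from the heterozygous libraries alone (0.0568). The Bearded-family genes Tom (794.6 and 1008 against 476.8 and 498.7 CPM, log2 0.89), Brd (1.22), BobA (1.16) and Ocho (0.42) rose as well. The receptor gene N (414.9 and 477.3 against 381.3 and 494.4 CPM) and its ligand gene Delta (761.3 and 906.3 against 688.1 and 731.6 CPM) were not called. The 1 fall was of Su(H), the transcription factor of the pathway, at 49.0 and 52.7 CPM against 175.6 and 177.6 CPM (log2 -1.80). The gene neur (log2 -0.25) joined it without stage 6-7 replicate 2 or either homozygous stage 5 library (adjusted p = 0.00771, 0.0321 and 0.0419).

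**Figure D4:**
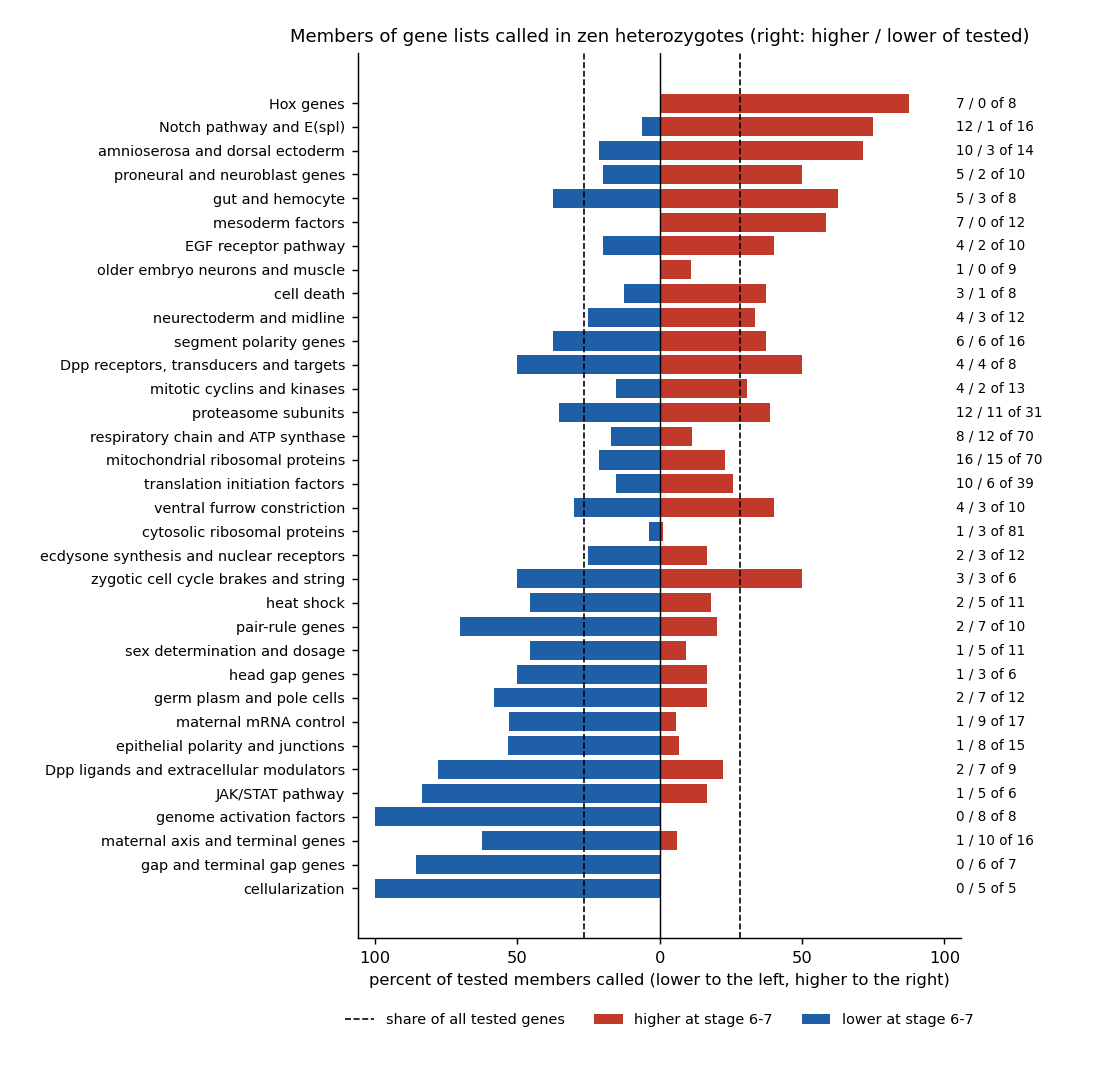
Share of the tested members of each gene list with 5 or more of them that were called lower (left) or higher (right) at stage 6-7 in heterozygotes, ordered by the median log2 change of the list, with the counts at the right and dashed lines at the shares of all tested genes, 28.4% higher and 26.5% lower. Cellularization, gap and maternal axis genes are at the bottom, and Hox genes, the Notch list and amnioserosa genes at the top.

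Other signalling pathways moved in part. Of 10 tested genes of the EGF receptor pathway, 4 rose and 2 fell. These shares are not far from the 28.4% and 26.5% of all tested genes, so the genes are given singly. The ligand gene spi (295.9 and 320.7 against 171.2 and 167.3 CPM, log2 0.86) rose, as did the target genes pnt (86.4 and 116.5 against 42.1 and 42.8 CPM, log2 1.26), aos (0.62) and sty (0.90), the last 2 encoding inhibitors of the pathway. The activating protease gene rho fell (51.6 and 63.4 against 91.4 and 77.4 CPM), and the receptor gene Egfr (log2 -0.28, adjusted p = 0.0421) lost its call without either stage 5 library or stage 6-7 replicate 1 (adjusted p = 0.123, 0.109 and 0.375). With both libraries that stood apart left out, 7 rose and 1 fell. In the JAK/STAT pathway 5 of 6 tested genes fell, with a median of -0.68. The ligand gene upd1 (52.1 and 60.4 against 77.6 and 78.2 CPM, log2 -0.47), the receptor gene dome (569.7 and 590.1 against 842.7 and 899.6 CPM, log2 -0.59), the kinase gene hop (63.3 and 69.0 against 133.9 and 111.4 CPM, log2 -0.89), Stat92E (177.2 and 182.6 against 316.7 and 299.4 CPM, log2 -0.78) and the feedback inhibitor gene Socs36E (74.5 and 82.7 against 208.9 and 240.0 CPM, log2 -1.51) all fell, and upd2, another ligand gene, rose (5.37 and 8.49 against 2.81 and 2.74 CPM, log2 1.32).

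Genes of organ primordia and of the epithelium followed. Among gut and hemocyte genes 5 of 8 (62.5%) rose and 3 (37.5%) fell, beside 28.4% and 26.5% of all tested genes. The endoderm factor gene GATAe stood at 2.51 and 4.35 CPM at stage 6-7 against 0.261 and 0.111 CPM at stage 5 (log2 4.19, SE 0.424, adjusted p = 1.69e-06), and gcm, of hemocytes and glia, at 30.3 and 30.0 CPM against 11.7 and 11.5 CPM (log2 1.37), while fkh (log2 -0.38), byn (-0.40) and hkb (-0.82), which act in the gut primordia, fell. The call of byn was lost without stage 5 replicate 1 (adjusted p = 0.0688), without stage 6-7 replicate 1 (0.0528) and with library totals (0.0963). With library totals fkh was not called either (adjusted p = 0.058), which left 1 fall. The rises of srp (log2 0.54) and Pvr (0.53) were lost without stage 5 replicate 1 or stage 6-7 replicate 2 (adjusted p = 0.0898 to 0.619), which left 3. In the tracheal list the FGF ligand gene bnl rose to 32.1 and 41.6 CPM against 11.5 and 9.96 CPM (log2 1.78). Of 15 genes of epithelial polarity and junctions, 8 fell, with a median of -0.49. The polarity gene crb stood at 284.0 and 267.9 CPM against 685.4 and 791.7 CPM (log2 -1.42, SE 0.105, adjusted p = 8.88e-08), and shg, for E-cadherin, at 538.3 and 599.5 CPM against 1115 and 1127 CPM (log2 -0.98). The catenin partners arm (2043 and 2026 against 1888 and 2105 CPM) and alpha-Cat (565.9 and 554.8 against 483.6 and 509.8 CPM) were not called (adjusted p = 0.801 and 0.0714). The 1 rise, of cora (adjusted p = 0.0482), was lost without any single heterozygous library other than stage 6-7 replicate 1, or without either homozygous stage 6-7 library (adjusted p = 0.074 to 0.263).

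Among called genes of at least 5 CPM, CG32053 rose most, at 10.09 and 10.1 CPM at stage 6-7 against 1.10 and 0.747 CPM at stage 5 (log2 3.45, SE 0.295, adjusted p = 3.48e-07). E(spl)m2-BFM (9.67 and 12.4 against 1.51 and 0.969 CPM, log2 3.15), the transcriptional repressor gene ttk (26.5 and 38.4 against 4.90 and 3.27 CPM, log2 2.99), CrebA, a regulator of the secretory pathway (21.2 and 30.2 against 3.77 and 3.10 CPM, log2 2.90), and the glypican gene dally (34.4 and 56.9 against 6.96 and 7.25 CPM, log2 2.68) followed beside Toll-6, en, tin, Dr and zfh1. The homeobox gene Ptx1 (log2 2.43), ana (2.42), CG7255 (2.48) and 2 IDs without a symbol in the annotation completed the 15 genes. In absolute terms the largest gains were of CG10035 (2552 and 2368 against 1587 and 1527 CPM, log2 0.66), Bacc (log2 0.42), the noncoding RNA lncRNA:CR42862 (1604 and 1625 against 1122 and 1206 CPM, log2 0.47), dan (0.67), Tom and the innexin gene Inx3 (0.57), and none of these 6 rose by as much as 2-fold. Bacc lies antisense to lncRNA:CR44772.

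The structure of the genes that changed most was set beside that of all tested genes as a description. Of the 288 annotated genes that fell at least 4-fold, 53 (18.4%) had a single exon, against 22 of 178 (12.4%) that rose at least 4-fold and 1100 of 9187 of all tested genes. Genomic span was longer at both ends, with a median of 3588 bp for the fallers and 3498 bp for the risers, against 2665 bp for all tested genes.

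The homozygous libraries, which share none with the heterozygous comparison but enter the same fit, gave a like change. In homozygotes 5629 genes (60.1%) passed, of which 2911 (31.1%) rose and 2718 (29.0%) fell. Of the heterozygous rises 2392 (89.9%) were also called higher in homozygotes, 82.2% of the rises there, and of the falls 2175 (87.6%), 80.0% of the falls there, while 7 rises and 3 falls were called the opposite way. The log2 change of slam was -9.70 in heterozygotes and -9.92 in homozygotes. That of Elba3 was -6.60 in heterozygotes and -6.93 in homozygotes, and that of tor -3.98 in heterozygotes and -3.71 in homozygotes. The sizes of the changes are a description, since the genes were picked by their change in heterozygotes. The 180 genes that rose at least 4-fold there had a median log2 change of 2.44 in heterozygotes and 2.58 in homozygotes, and the 291 that fell as far had medians of -2.56 in heterozygotes and -2.46 in homozygotes. Without heterozygous stage 6-7 replicate 1 the medians of the 180 were 2.63 in heterozygotes and 2.58 in homozygotes, so their order turned on that library.

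By the test of the difference itself, 7 genes (0.0748%) had stage changes that differed between the genotypes, and 629 had an unadjusted p under 0.05. In each of the 7 but dlp the change in heterozygotes was the higher. The receptor gene mthl8 on arm 3L stood at 36.1 and 35.1 CPM at stage 6-7 against 28.3 and 30.8 CPM at stage 5 in heterozygotes, with no call (adjusted p = 0.181), and at 1.59 and 2.11 CPM against 10.4 and 6.50 CPM in homozygotes (log2 -2.18). The TIR-domain gene Sarm was also not called in heterozygotes (24.8 and 28.3 against 20.1 and 24.2 CPM, log2 0.26) and fell in homozygotes (3.78 and 3.17 against 9.40 and 9.68 CPM, log2 -1.46). The glypican gene dlp fell in heterozygotes (29.4 and 34.5 against 50.9 and 43.2 CPM, log2 -0.56) and rose in homozygotes (64.5 and 72.9 against 38.6 and 37.7 CPM, log2 0.85). The cryptochrome gene cry and the aminopeptidase gene S-Lap1 fell in both, with log2 changes of -0.80 and -0.61 in heterozygotes and -3.09 and -2.64 in homozygotes. Prat2 and CG8860 rose in heterozygotes (log2 0.86 and 0.43) and fell in homozygotes (log2 -2.82 and -0.60). In heterozygotes the rise of Prat2 was not called without stage 5 replicate 1 (adjusted p = 0.0844), stage 5 replicate 2 (0.0756) or stage 6-7 replicate 1 (0.0611) or by DESeq2 (0.0502), and that of CG8860 not without stage 6-7 replicate 2 (0.0503). All but CG8860, on arm 2R, lie on chromosome 3, whose arms 3L and 3R hold 19.7% and 24.4% of the annotated tested genes. Homozygotes carry no balancer of this chromosome, and its part in these differences was not tested. None of the 7 kept its call without heterozygous stage 5 replicate 1 (adjusted p = 0.0519 to 0.178).

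**Figure D5:**
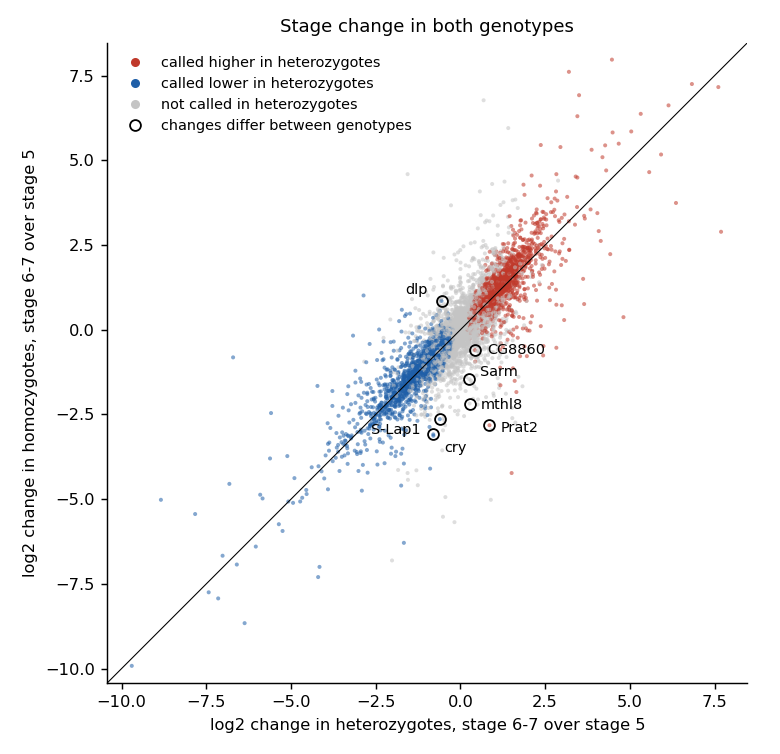
Log2 change between the stages (stage 6-7 over stage 5) in heterozygotes (horizontal axis) and homozygotes (vertical axis) for the 9360 tested genes, coloured by the call in heterozygotes, with a line where both are equal and circles around the 7 genes whose changes differed. Most called genes lie along the line, and 6 of the 7 circled genes lie below it, with dlp above.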

How the data were processed

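RNA-seq of pooled whole embryos was deposited as 8 files of raw counts per gene, 1 for each library. Reads were processed with STAR and HTSeq, per the submitters' processing notes, with versions, genome build and strand setting not given in the sources used here. The authors' counts were used as deposited. Summary lines that name no gene, 12.89% to 18.22% of the total, were dropped. Of 17468 gene IDs, 17188 matched the Ensembl release 115 annotation (BDGP 6.54), which gave symbols, coordinates and exon overlaps.

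From the counts, edgeR 4.0.16 (R 4.3.3) with TMM scaling and filterByExpr (minimum count 10) fitted 4 group means over all 8 libraries by its robust quasi-likelihood test, with 4 residual degrees of freedom, and p-values were adjusted by Benjamini-Hochberg over the 9360 genes. The SE is the log2 change divided by the square root of F. The steps were tested on simulated data. Named genes were the 15 largest rises and falls by log2 change (called, averaging 5 CPM or more, stages not overlapping), the 6 largest each way by CPM, all members of lists of at most 20 genes, the 4 members of smallest p of longer lists, genes that differed between genotypes, and zen. The comparison and the gene lists were chosen with earlier results of these data known. Alternatives were DESeq2 1.42.0, limma-voom (limma 3.58.1), other scalings, other filters, a replicate block, heterozygous libraries alone, a test against 2-fold and leaving out libraries.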

Additional observations from a re-analysis of the deposited data

Results flagged for a closer look

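The stage change of 7 genes differed between heterozygotes and homozygotes by edgeR's test of the difference itself, Benjamini-Hochberg adjusted, and each is given as the log2 change in heterozygotes minus that in homozygotes. For mthl8 it was 2.45 (SE 0.275, adjusted p = 0.00296), for dlp -1.41 (SE 0.167, adjusted p = 0.00296) and for Sarm 1.72 (SE 0.205, adjusted p = 0.00296). The value for cry was 2.29 (SE 0.296, adjusted p = 0.0055), with levels at stage 6-7 and stage 5 of 15.7 and 15.3 against 26.2 and 27.8 CPM in heterozygotes and 1.02 and 0.998 against 10.8 and 6.61 CPM in homozygotes. S-Lap1 had a value of 2.03 (SE 0.294, adjusted p = 0.0155), with 8.71 and 10.7 against 14.3 and 15.3 CPM in heterozygotes and 0.755 and 0.558 against 4.54 and 3.75 CPM in homozygotes. Prat2 had the widest difference of the 7, 3.68 (SE 0.569, adjusted p = 0.0239), with 3.33 and 3.13 against 1.74 and 1.83 CPM in heterozygotes and 0.108 and 0.0880 against 0.929 and 0.532 CPM in homozygotes. CG8860 had a value of 1.03 (SE 0.16, adjusted p = 0.0239), with 19.7 and 21.5 against 15.3 and 15.4 CPM in heterozygotes and 14.2 and 15.2 against 21.9 and 22.6 CPM in homozygotes. CG8860 and cry overlap other genes. Without heterozygous stage 5 replicate 2 the adjusted p was 0.076 for cry, 0.0792 for S-Lap1, 0.107 for Prat2 and 0.134 for CG8860, and by limma-voom it was 0.0617, 0.0885, 0.0885 and 0.0547 for these 4 genes.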

How the results depend on the processing

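The heterozygous counts of 2660 rises and 2482 falls stayed within 1.5 times of these values under every alternative except the test against 2-fold, which gave 356 and 537 (611 and 589 in homozygotes). Leaving out 1 library gave 2021 to 2849 rises and 2095 to 2715 falls. Deviations of same-numbered heterozygous libraries correlated at -0.062, so no pairing by replicate number was seen. Whether same-numbered libraries shared a batch is not stated in the labels and was not tested. With a replicate block 2697 genes rose and 2548 fell, 2633 and 2466 of them shared with the fit without it. The 7 genes that differed between genotypes were the unstable count, at 123 with no low-count filter, 57 by DESeq2, 3 by limma-voom, 38 with the replicate block, 0 against 2-fold and 25 with both libraries that stood apart left out, an alternative chosen after seeing the data. Leaving out 1 library gave 0 to 114, the lowest without heterozygous stage 5 replicate 1 and the highest without homozygous stage 5 replicate 2. The cause was not tested. Of 354 named genes, 263 were called and 133 kept direction and call under every alternative. No fold is given here for bap, which had a few reads per library. Some folds that are given also rest on a few reads in a group, so their sizes are uncertain. Examples are GATAe, for heterozygotes at stage 5, and Prat2, for homozygotes at the later stage.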

Other observations

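Genes of general cell function are given beside the shares of all tested genes, 28.4% higher and 26.5% lower. Of 81 tested cytosolic ribosomal protein genes, 1 rose and 3 fell, with a median log2 change of -0.08. The number that fell was 14 without heterozygous stage 6-7 replicate 1, 0 without stage 6-7 replicate 2 or stage 5 replicate 1, 0 with library totals, and 71 with heterozygous stage 6-7 replicate 1 and homozygous stage 5 replicate 1 both left out. Proteasome subunits went both ways, with 12 of 31 higher and 11 lower. The core subunit gene Prosalpha4 stood at 133.4 and 108.2 CPM at stage 6-7 against 406.0 and 388.6 CPM at stage 5 (log2 -1.72), and the lid subunit gene Rpn8 at 70.7 and 79.3 CPM against 32.6 and 32.8 CPM (log2 1.20). Of 70 mitochondrial ribosomal protein genes 16 rose, mRpL38 among them (14.9 and 18.7 against 5.25 and 4.93 CPM, log2 1.72), and 15 fell, or 7 without stage 6-7 replicate 2 or with library totals. Of 70 respiratory chain and ATP synthase genes 8 (11.4%) rose and 12 (17.1%) fell, SdhD among the falls (21.0 and 19.8 against 49.5 and 44.4 CPM, log2 -1.20). Those counts were 2 higher without stage 5 replicate 2, 4 higher without stage 6-7 replicate 1, 5 higher without homozygous stage 6-7 replicate 2, 5 lower without stage 5 replicate 1 and 6 lower without stage 6-7 replicate 2. With library totals 16 rose and 6 fell, which turns the balance, and 25 fell with both libraries that stood apart left out. Of 39 translation initiation factor genes 10 rose and 6 fell, or 5 and 3 without stage 5 replicate 2, and 6 rose without stage 6-7 replicate 2. The count of falls was 1 with library totals and 15 with both libraries that stood apart left out.

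The lists from here on are small and are set beside the same shares of all tested genes, 28.4% higher and 26.5% lower. Among cell death genes 3 of 8 rose and 1 fell. The activator genes rpr (21.5 and 26.6 against 9.60 and 6.92 CPM, log2 1.54) and skl (5.26 and 5.54 against 2.58 and 2.33 CPM, log2 1.14) rose, and the caspase gene Dronc fell (28.5 and 21.8 against 123.8 and 134.4 CPM, log2 -2.36). The other rise, of Diap1, was small (log2 0.328). Its log2 change was 0.186 without heterozygous stage 5 replicate 1 and 0.288 without heterozygous stage 6-7 replicate 2. Without stage 5 replicate 2 or stage 6-7 replicate 1, p53 was called lower too (adjusted p = 0.0362 and 0.0395). Of 12 genes of ecdysone synthesis and nuclear receptors 2 rose and 3 fell, and sad, for a late enzyme of the pathway, stood at 23.8 and 28.0 CPM against 10.3 and 12.7 CPM (log2 1.17). The other rise, of usp, was lost without stage 5 replicate 2 or stage 6-7 replicate 2 (adjusted p = 0.0654 and 0.0768). Of 11 sex determination and dosage genes 5 fell and 1, sc, rose, and the count of rises was 2 without either homozygous stage 5 library. Of 4 tracheal and FGF genes 2 rose and 1 fell.

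The heat shock gene Hsp68 stood at 1.82 and 26.0 CPM at stage 6-7 against 95.5 and 102.0 CPM at stage 5 and was not called (adjusted p = 0.179). Of 11 tested members 2 rose and 5 fell, with 2 falls without stage 5 replicate 1 and 1 rise without stage 5 replicate 2 or stage 6-7 replicate 2. The mitochondrial chaperone gene Hsc70-5 rose (79.9 and 87.9 against 39.2 and 41.2 CPM, log2 1.06) and Hsp26 fell (10.03 and 13.1 against 20.3 and 21.4 CPM, log2 -0.85).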
